A study of Mus musculus with 2 samples.

Results

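Heat shock proteins and chaperones are the machines that fold, refold, assemble and take apart other proteins. The 86 genes described here are those of 43346 gene rows whose symbols belong to the Hsp70 and Hsp110, Hsp90, small heat shock, Hsp60 and Hsp10, DnaJ, CCT and BAG families. They were chosen by symbol alone, with pseudogenes and antisense symbols left out. The symbol rule matched 87 genes in the annotation, of which Hspa14 had no matching gene ID in the tables and was not analysed here.

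The RNA came from the cortical plate of adult C57BL/6J mice at 8 weeks of age, pooled from male and female littermates. The labels name no treatment or mutation, and they give the state of health as unknown. There was 1 group with 2 libraries, biological replicates 2 and 1, which have separate biosample records but share a donor record. Each library held polyadenylated RNA longer than 200 nucleotides, with spike-in RNA added, read as stranded pairs of 101 bases. With no second condition, the design allows levels within the tissue and the difference between the 2 libraries, and a ratio of replicate 2 over replicate 1 compares these libraries and not conditions.

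Hsp70 proteins bind exposed stretches of unfolded chains and release them in an ATP cycle. DnaJ proteins (also called Hsp40) bring them clients and start ATP hydrolysis, while Hsp110 and most BAG proteins reopen the nucleotide pocket. Hsp90 takes over clients such as kinases and steroid receptors at a late step of folding, the CCT ring folds actin and tubulin, and small heat shock proteins hold unfolded chains without ATP. In nerve endings Hsp70 and J proteins also strip clathrin from vesicles and keep the fusion machinery folded. Under stress, the transcription factor Hsf1 binds heat shock elements, inverted repeats of GAA, in the promoters of the inducible members.

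The deposited gene tables held 92939474 estimated counts in replicate 2 and 91875460 in replicate 1. Of 19829 genes that reached 10 counts summed over the libraries, 28.7% differed between the libraries by an exact binomial test on counts scaled with edgeR's TMM factors, at a Benjamini-Hochberg adjusted p under 0.05. With the spread that edgeR estimated over all genes, a biological coefficient of variation of 0.0905, 1.31% differed by its exact test. Marker genes of brain regions and cell types differed between the libraries. All 8 striatal markers were higher in replicate 2 (summed level 411 TPM in replicate 2 and 138 TPM in replicate 1, where TPM is a level scaled for transcript length and library total), all 5 oligodendrocyte markers were higher (4009 and 3274 TPM) and so were all 5 immediate early genes (284 and 202 TPM). Of 5 dentate gyrus and hippocampal markers, 4 were lower in replicate 2 (summed level 40.7 TPM in replicate 2 and 54.8 TPM in replicate 1). No marker in these 4 lists was at 0 in a library. All 5 ependymal and all 5 red blood cell markers were also higher in replicate 2, while the neuronal list was split with 4 of 7 higher and 2 lower. Of 5 genes each, 3 astrocyte, 0 microglial, 1 endothelial and 3 choroid plexus markers were higher, and 1, 3, 1 and 1 were lower. With spike-in totals 3 of those 4 neuronal genes and all 3 astrocyte genes turned to lower. The TPM of the median gene was 0.16 lower in replicate 2 on the log2 scale, so a lower TPM in that library is not in itself a difference, and differences between libraries below are ratios of scaled counts. In bulk tissue fewer cells of a type and less RNA per cell cannot be told apart.

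The sequences upstream of the start sites are shown first, because textbook accounts tie the control of the stress-inducible members and of those in the endoplasmic reticulum (ER) to motifs there. RefSeq promoter windows on GRCm38.p6 (250 bases before and 50 after a start) were found for 70 of the 86 members. Hspa8, Hsp90ab1 and Hsp90aa1 were among the 16 members without a window, so they were not searched. Each window was searched on both strands for a heat shock element of 3 alternating repeats. The element was read as GAA, any 2 bases, TTC, any 2 bases and GAA, or as the same run starting and ending with TTC. These letters were in a window of 4 members, which is 5.71% of those searched, against 0.662% of 27025 genes in the table. The 4 were Dnajb6, Hspd1, Hspe1 and Hsph1. In Hsph1, an Hsp110 that exchanges the nucleotide of Hsp70, the match lies after the start site, so it is not printed. In the stretches below, 5′ to 3′ on the strand of the gene, capitals mark the heat shock element. Hspe1 and Hspd1, the mitochondrial cochaperonin Hsp10 and chaperonin Hsp60, start back to back, and their line shows the same 58 bases of chr1:55088039-55088096 read on the plus strand for Hspe1 and on the minus strand for Hspd1. In it 2 matches overlap, so the capitals run over both. Hspd1 has 2 RefSeq windows, and the matches lie at −144 to −126 from the start of the second. The window of the first start, whose upstream bases are chr1:55088244-55088493, holds no match. The printed bases lie after that first start. The Dnajb6 stretch is chr5:29735832-29735884 on the plus strand.
Hspe1: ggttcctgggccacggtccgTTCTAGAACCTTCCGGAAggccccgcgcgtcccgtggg
Hspd1: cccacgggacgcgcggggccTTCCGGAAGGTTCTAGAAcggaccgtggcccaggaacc
Dnajb6: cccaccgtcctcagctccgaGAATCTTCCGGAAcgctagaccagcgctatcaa

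A shorter form with 2 repeats, GAANNTTC or TTCNNGAA, was in a window of 21 members (30.0%, against 17.0% of all genes) and includes every window with 3 repeats. Among the 11 stress-inducible members with a window, which leaves out Hspa8 and Hsp90aa1, 9 had it and 3 had the longer form. The upstream 250 bases of Hspa1a and Hspa1b, the heat-inducible Hsp70 genes, hold the same base at 247 of 250 positions (98.8%). Both hold 1 copy of the 2-repeat form, shown in capitals in the stretches of chr17:34972233-34972280 for Hspa1a and chr17:34959315-34959362 for Hspa1b, both on the minus strand. The same 48 letters stand at the same distance from both start sites, which is why the pair is shown.
Hspa1a: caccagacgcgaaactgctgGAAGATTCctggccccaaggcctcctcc
Hspa1b: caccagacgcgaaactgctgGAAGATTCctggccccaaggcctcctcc

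The ER stress element, searched on both strands as CCAAT, any 9 bases and CCACG, was in a window of 3 members, 4.29% of those searched against 0.137% of all genes. All 3 encode proteins of the ER lumen. They are Hspa5 (BiP, the ER Hsp70), Hsp90b1 (Grp94, the ER Hsp90) and Dnajc3 (P58IPK, a J protein that works with BiP). The stretches are chr2:34772005-34772063 (plus strand) for Hspa5, chr14:118937807-118937865 (plus strand) for Dnajc3 and chr10:86705513-86705676 (minus strand) for Hsp90b1. Capitals mark the element, which Hsp90b1 holds in 2 copies, the second on the opposite strand. A match of letters is a description and not a binding site, and a window without a match says only that these letters are not there.
Hspa5: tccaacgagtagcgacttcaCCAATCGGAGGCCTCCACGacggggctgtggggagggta
Dnajc3: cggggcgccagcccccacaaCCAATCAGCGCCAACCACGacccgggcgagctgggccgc
Hsp90b1: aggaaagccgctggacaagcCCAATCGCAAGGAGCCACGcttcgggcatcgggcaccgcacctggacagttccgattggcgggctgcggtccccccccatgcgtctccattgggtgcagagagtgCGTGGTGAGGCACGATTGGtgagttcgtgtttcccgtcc

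Most chaperones were expressed in the adult cortex. In both libraries, 74 of the 86 members reached 1 TPM (86.0%, against 72.8% of 17673 protein-coding genes with at least 1 count) and 57 reached 10 TPM (66.3%, against 43.3%). At 100 TPM there were 4 members (4.65%, against 5.15%). The median member had 20.7 TPM in replicate 2 and 23.1 TPM in replicate 1, against 7.24 and 8.08 TPM for the protein-coding genes. Together the members summed to 4246 TPM in replicate 2 and 4584 TPM in replicate 1, which is 0.876% and 0.857% of the TPM of nuclear protein-coding genes.

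**Figure D1:**
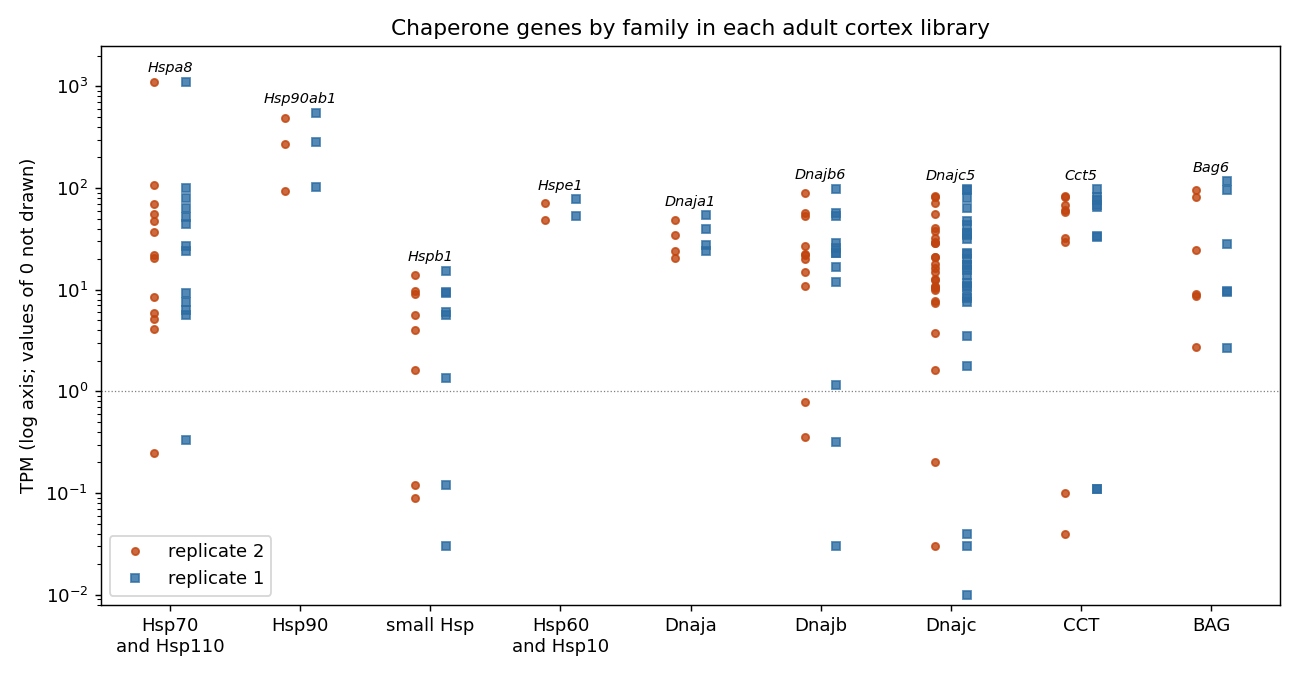
TPM of each of the 86 chaperone genes by family on a log axis, with circles for replicate 2 and squares for replicate 1; values of 0 are not drawn, the dotted line is 1 TPM, and the name is the most abundant gene of the family. Hspa8 at 1106 and 1093 TPM stands above all other members, and the members below 1 TPM lie in the Hsp70, small Hsp, Dnajb, Dnajc and CCT families.

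A few genes carried much of this RNA. Hspa8, the constitutive Hsp70 also called Hsc70 (chr9:40800984-40810087), was listed at 1106 TPM in replicate 2 and 1093 TPM in replicate 1, which is 26.0% and 23.8% of the members' summed TPM. Hspa8, Hsp90ab1 and Hsp90aa1 together made up 43.8% in replicate 2 and 42.0% in replicate 1. The Hsp70 and Hsp110 family summed to 1487 TPM in replicate 2 and 1513 TPM in replicate 1, a share of 34.0 ± 1.43% of the members' TPM (SD, n = 2). Hsp90 followed with 20.1 ± 0.292%, the Dnajc genes with 16.1 ± 0.593%, the CCT genes with 9.83 ± 0.126% and the Dnajb genes with 7.43 ± 0.0824% (SD, n = 2 each). With the genes that the symbol rule takes in, the small heat shock family was last at 1.04 ± 0.00977%, and at 0.414% of the members' counts not divided by length.

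Within the Hsp70 and Hsp110 family the gene next to Hspa8 was Hspa5 (chr2:34771970-34777547), with 106 TPM in replicate 2 and 101 TPM in replicate 1, a log2 ratio of −3.41 ± 0.04 for Hspa5 over Hspa8 (SD, n = 2). Hsph1 had 69.4 and 79.8 TPM, and Hspa9, the mitochondrial Hsp70 mortalin, had 55.7 and 63.7 TPM in replicates 2 and 1. These 4 genes stood well above the heat-inducible pair, of which Hspa1a (chr17:34969190-34972156) had 5.93 TPM in replicate 2 and 7.65 TPM in replicate 1. Hspa1b (chr17:34956436-34959238) had 4.14 and 6.36 TPM. Hspa8 was higher than Hspa1a by 7.35 ± 0.27 (SD, n = 2) on the log2 scale in TPM, by 5.80 in the authors' RPKM values on mm9 and by 6.66 in counts not divided by length. Hspa1l, known for testis and starting 547 bases from Hspa1a in the opposite direction, had 0.25 TPM in replicate 2 and 0.33 TPM in replicate 1.

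The Hsp110 genes were all present. Hspa4 had 37.4 TPM in replicate 2 and 43.9 TPM in replicate 1, against 20.5 and 24.2 TPM for its close relative Hspa4l, a log2 ratio of 0.86 ± 0.01 (SD, n = 2) that was 0.84 on mm9 and 0.13 in counts. Hspa4 was in turn lower than Hsph1, with a log2 ratio of −0.88 ± 0.02. The distant relative Hspa12a had 46.9 and 51.8 TPM in replicates 2 and 1, above Hspa12b with 5.21 and 5.58 TPM (log2 ratio 3.19 ± 0.03, and 4.20 in counts). Hspa2, best known from male germ cells, reached 21.9 TPM in replicate 2 and 26.7 TPM in replicate 1, and its range overlapped that of Hspa4l.

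The cytosolic Hsp90 genes were the second and the third most abundant members. Hsp90ab1, the constitutive form (chr17:45567775-45573271), had 484 TPM in replicate 2 and 546 TPM in replicate 1. Hsp90aa1, the form that stress induces, had 268 and 285 TPM, so that Hsp90ab1 was above it by 0.89 ± 0.06 on the log2 scale (SD, n = 2). Hsp90b1 in the ER had 93.4 TPM in replicate 2 and 102 TPM in replicate 1. The ranges of the 3 genes over the libraries did not overlap.

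The mitochondrial chaperonin pair was close in level and its order depended on the measure. Hspe1 had 70.7 TPM in replicate 2 and 77.4 TPM in replicate 1, and Hspd1 had 48.6 and 53.6 TPM. The log2 ratio of Hspd1 over Hspe1 was −0.54 ± 0.01 in TPM (SD, n = 2), but it turned to 0.60 in the authors' RPKM values on mm9 and to 1.27 in counts not divided by length. The 2 genes share 111 bases at their start in opposite directions. Their differences between libraries were of the same size, a log2 ratio of 0.01 for each gene, and neither passed the test.

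As the symbol rule takes them, small heat shock genes were the lowest family, with a sum of 44.3 TPM in replicate 2 and 47.2 TPM in replicate 1. Hspb1 (Hsp25) had 13.9 TPM in replicate 2 and 15.3 TPM in replicate 1, Hspb11 had 9.77 and 9.26 TPM, Hspb8 had 9.17 and 9.50 TPM and Hspb6 had 5.58 and 6.02 TPM. Hspb11 is better known as a subunit of intraflagellar transport in cilia than as a holdase. The related alpha-B crystallin gene Cryab, which the symbol rule does not take in, had 114 TPM in replicate 2 and 103 TPM in replicate 1, above Hspb1 (log2 ratio −2.89 ± 0.21 for Hspb1 over Cryab, and −4.09 on mm9). Cryab alone was above the summed level of the family in both libraries, so the family's last place depends on the symbol rule. Hspb1 stood above Hspb8 by 0.64 ± 0.07 in TPM, but below it on mm9 (−0.45) and in counts (−0.56). Of the 5 members known for muscle, 4 reached 1 TPM in both libraries, and Hspb7 was listed at 0.12 TPM in each.

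J proteins of the Dnaja and Dnajb classes, which serve Hsp70 broadly, lay in the middle range. Dnaja1 had 48.9 TPM in replicate 2 and 53.9 TPM in replicate 1, above Dnaja2 (34.3 and 40.0 TPM), the mitochondrial Dnaja3 (24.0 and 27.6 TPM) and Dnaja4 (20.4 and 24.2 TPM). The ranges of Dnaja3 and Dnaja4 overlapped. Dnajb6, known for holding back polyglutamine aggregates, led its class with 89.6 TPM in replicate 2 and 97.7 TPM in replicate 1. Dnajb2, a neuronal J protein that binds ubiquitin, had 56.7 and 57.1 TPM, Dnajb5 had 53.1 and 52.6 TPM and the classical heat-inducible Dnajb1 had 27.0 and 28.5 TPM in replicates 2 and 1. Dnajb1 over Dnajb6 was −1.75 ± 0.03 and Dnajb1 over Dnajb5 was −0.93 ± 0.06 on the log2 scale in TPM (SD, n = 2), and on mm9 the values were −0.64 and −0.54.

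Dnajc genes share the J domain and little else. Dnajc5, cysteine string protein alpha of synaptic vesicles, had 82.7 TPM in replicate 2 and 97.0 TPM in replicate 1. Dnajc7, a tetratricopeptide J protein that bridges Hsp70 and Hsp90, had 81.6 and 95.5 TPM, a range that overlapped that of Dnajc5. Dnajc6, the neuronal auxilin that recruits Hspa8 to clathrin coats, had 71.1 TPM in replicate 2 and 79.3 TPM in replicate 1. Its widely expressed relative Gak, outside the symbol rule, had 39.2 and 45.0 TPM, a log2 ratio of 0.84 ± 0.03 for Dnajc6 over Gak. Dnajc8, found with the splicing machinery, had 55.2 and 64.3 TPM, and Dnajc13, an endosomal J protein, had 37.9 and 43.7 TPM in replicates 2 and 1. Dnajc5b, the testis form of cysteine string protein, was at 0.20 TPM in replicate 2 and 0.04 TPM in replicate 1.

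All 8 members placed in mitochondria and all 12 placed in the ER reached 1 TPM in both libraries. Of the 9 members known for testis, only Hspa2 did. Dnajb8 had 0 counts in both libraries, which allows up to 3 counts in each, or 0.0338 CPM in replicate 2 and 0.0340 CPM in replicate 1. Dnajb7 had 0 counts in replicate 2 and 2 in replicate 1, and Dnajc5g had 0 in replicate 2 and 1 in replicate 1, a difference not detectable at this depth. These limits cover counting error only.

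The CCT ring is built from 8 different subunits, 1 copy of each in a ring, so equal amounts of protein are needed. Its RNA was not equal. In TPM Cct5 was the highest with 83.5 TPM in replicate 2 and 97.0 TPM in replicate 1, and Cct6a the lowest with 29.3 and 32.7 TPM, a span of 2.85-fold in replicate 2 and 2.96-fold in replicate 1. Cct3 had 81.4 and 82.4 TPM, Cct7 67.9 and 76.1 TPM, Cct2 61.3 and 67.7 TPM, and Cct8 58.2 and 64.7 TPM. Tcp1, the subunit whose symbol the rule does not match, had 69.4 TPM in replicate 2 and 73.8 TPM in replicate 1. Cct4, with 31.9 and 34.0 TPM, stood with Cct6a below the other 6 in both libraries. That place of Cct4 held in counts, where it lay at −0.90 from the ring's median on the log2 scale, but on mm9 it lay at −0.15, close to Cct2 at −0.16. Cct6a was at −1.12 from the median both in TPM and on mm9, and all of its mm10 TPM lay on a transcript of 1599 nucleotides, the only one listed for it. The authors' mm9 junction reads did not put it lowest. Its 11 annotated junctions had 6828 reads in the first column and 7243 in the second, while the 14 of Cct4 had 4071 and 4374. The place of Cct6a as the lowest subunit is therefore not settled. The highest subunit changed with the measure. On mm9 it was Tcp1, at 0.81 from the median where Cct5 was at 0.66, and in counts it was Cct7, at 0.45 where Cct5 was at 0.17. The ring spanned 1.54 ± 0.04 on the log2 scale in TPM, 1.93 on mm9 and 1.90 in counts. Cct6b, the testis form of Cct6a, was listed at 0.10 and 0.11 TPM.

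**Figure D2:**
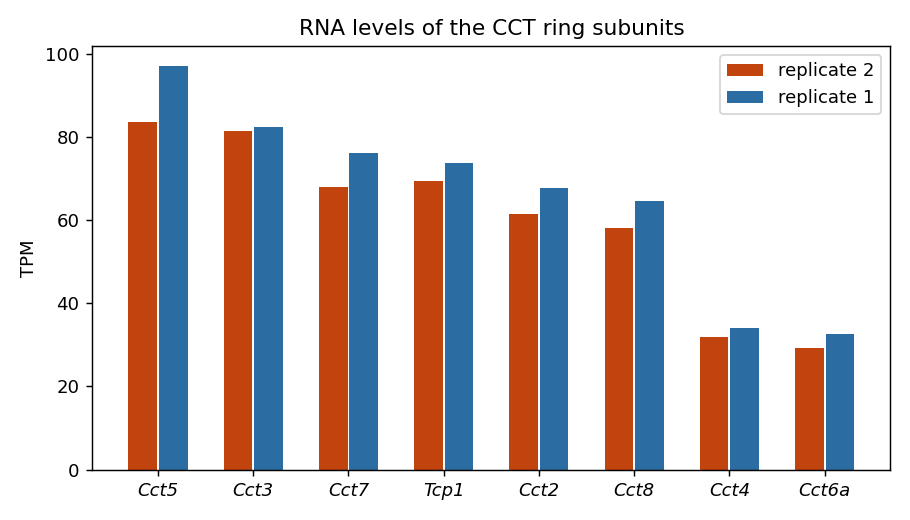
TPM of the 8 CCT ring subunits in replicate 2 (left bar) and replicate 1 (right bar), ordered by mean level. Cct4 and Cct6a lie between 29.3 and 34.0 TPM in both libraries, while the other 6 subunits lie at 58.2 TPM or above.

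BAG proteins differed widely. Bag6, which guards membrane proteins before insertion, had 95.9 TPM in replicate 2 and 116 TPM in replicate 1, and Bag1, which couples Hsp70 to the proteasome, had 80.8 and 96.8 TPM in replicates 2 and 1. Their ranges overlapped. Bag5 had 24.5 and 27.9 TPM, Bag4 9.15 and 9.82 TPM, and Bag2, an inhibitor of the ubiquitin ligase CHIP, 8.64 and 9.49 TPM. Bag3, which steers clients to autophagy and is induced by stress, was the lowest with 2.71 TPM in replicate 2 and 2.66 TPM in replicate 1. Bag1 over Bag3 was 5.04 ± 0.20 on the log2 scale in TPM (SD, n = 2) and 3.97 in counts.

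Between the libraries the chaperones differed little. Of 81 members tested, 24 (29.6%) passed the binomial test, 11 higher and 13 lower in replicate 2, beside 28.7% of all genes tested, 14.7% higher and 14.0% lower. That share is near the background and is not a result about the chaperones. Their median log2 ratio was 0.01, against 0.00 over all genes (0.00266 unrounded), and 73 of the 81 lay within 1.2-fold. The median absolute log2 ratio was 0.06 for the members and 0.11 for all genes tested, but the members also had more counts, a median of 7080 over both libraries against 1909. Among genes with at least 2100 counts the values were 0.04 for 60 members and 0.06 for 9447 protein-coding genes, with 36.7% and 41.0% passing. Before adjustment 32 members were under 0.05 by the binomial test (39.5%, against 37.2% of all genes). By edgeR's exact test with the common spread no member passed, against 1.31% of all genes, and before adjustment 2 members were under 0.05 (2.47%, against 6.31%).

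The directions of these small differences hang on the scaling. With libraries scaled by spike-in totals the median of all genes tested was −0.15 and that of the members −0.14 on the log2 scale, so relative to that shift the members' median stayed near 0, and 8 of the 11 members higher in replicate 2 turned to lower. That scaling called 57 members (70.4%, 2 higher and 55 lower), against 53.2% of all genes, 4.42% higher and 48.8% lower. The 8 were Hspa8, Hsp90aa1, Dnajb1, Dnajb2, Dnajb4, Dnajb5, Dnajc10 and Cct3. Scaled by plain totals, Hsp90aa1 also turned, and Cct3, Dnajb1, Dnajb2, Dnajb4 and Dnajc10 no longer passed. The log2 ratios of all genes move down alike with spike-in totals, so a member already lower could not turn.

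**Figure D3:**
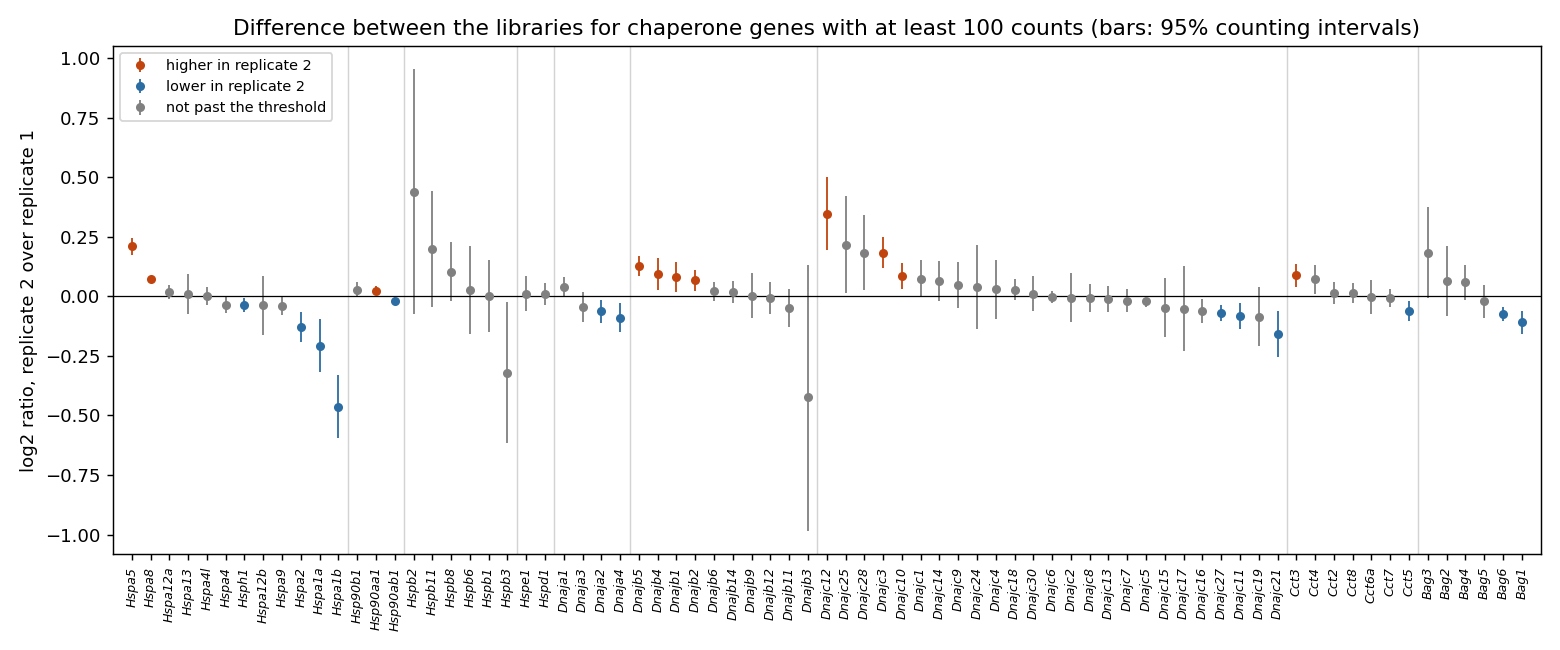
Log2 ratio of scaled counts, replicate 2 over replicate 1, for the chaperone genes that reached 100 counts summed over the libraries, grouped by family, with bars for 95% counting intervals. Most points lie within 0.2 of 0, and Dnajc12 at 0.35 and Hspa1b at −0.46 are the members past the threshold with a ratio of at least 1.2 either way.

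Past the threshold with a ratio of at least 1.2 in either direction there were 2 members, beside 9.31% of all genes. Hspa1b had 797 counts in replicate 2 against 1120 in replicate 1, and its ratio was 0.726 with a 95% counting interval of 0.662 to 0.795 (adjusted p = 7.1e-11 by the exact binomial test, 0.47 by edgeR's exact test). Its twin Hspa1a had 1216 and 1432 counts in replicates 2 and 1, at a ratio of 0.866 (0.802 to 0.935, adjusted p = 0.0014 by the exact binomial test). The genes are known to encode nearly the same protein, and 49.7% of the 101-base windows of Hspa1b transcripts also occur in another gene, so the split of reads between them is uncertain. Summed, the pair reached 2013 counts in replicate 2 against 2552 in replicate 1, with a ratio of 0.804 (0.758 to 0.853, adjusted p = 5.7e-12 by the exact binomial test).

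Dnajc12 (chr10:63382443-63410576), a J protein that escorts aromatic amino acid hydroxylases, had 786 counts in replicate 2 against 630 in replicate 1. The ratio was 1.27 (1.14 to 1.42, adjusted p = 6.3e-05 by the exact binomial test, 1.00 by edgeR's exact test). The striatal, oligodendrocyte and immediate early markers that were higher in replicate 2 moved in the same direction as Dnajc12, and the hippocampal ones in the same direction as the Hspa1 pair. Their part in either result was not tested.

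The list of 13 stress-inducible members also holds Hspa8, which is made without stress. Beside the 14.7% of all genes that were higher and the 14.0% that were lower, 4 of the 13 were higher in replicate 2 (Hspa8, Hsp90aa1, Dnajb1 and Dnajb4, all with ratios between 1.02 and 1.07, and all turning to lower with spike-in totals), 3 were lower (Hspa1a, Hspa1b and Hsph1) and the median log2 ratio was 0.01. Without Hspa8, 3 of 12 were higher and 3 lower. Hspa8 had 135618 counts in replicate 2 against 131494 in replicate 1, for a ratio of 1.05 with an interval of 1.04 to 1.06. Hsph1, with 18671 and 19525 counts, had a ratio of 0.975. Bag3, Hspb1, Hspd1, Hspe1, Dnaja1 and Hspa4l did not pass, with ratios between 1.00 and 1.14.

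Among the 12 ER members 3 were higher in replicate 2 and none was lower, beside 14.7% and 14.0% of all genes, with a median log2 ratio of 0.03. With spike-in totals Dnajc10 turned to lower, Dnajc3 no longer passed (log2 ratio 0.03, adjusted p = 0.48 by the exact binomial test) and the median was −0.12, beside −0.15 over all genes. With plain totals Dnajc10 did not pass (adjusted p = 0.16). Hspa5 had 12454 counts in replicate 2 against 10983 in replicate 1, for a ratio of 1.16 (1.13 to 1.19). Dnajc3 had 4040 and 3630 counts, a ratio of 1.13 (1.08 to 1.19), and Dnajc10, an ER disulphide reductase, had 5353 and 5145 counts, a ratio of 1.06. Hsp90b1, which also holds the ER stress element, had 17627 counts in each library and did not pass. Of 15 other genes of ER folding and its stress response, 6 were higher in replicate 2 and 1 was lower, with a median of 0.06, and 2 of the 6, Pdia3 and P4hb, turned to lower with spike-in totals. The disulphide isomerase genes Pdia3, Pdia4, Pdia6 and P4hb had ratios between 1.06 and 1.14, the transcription factor genes Xbp1 and Atf4 had 1.13 and 1.12, and Atf6 had 0.943. None of these passed by edgeR's exact test.

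The counts in the lists that follow stand beside 14.7% of all genes higher and 14.0% lower in replicate 2. No gene of these lists passed by edgeR's exact test. Of the 8 mitochondrial members only Dnajc11 was lower in replicate 2, with a ratio of 0.945, and the median was −0.04. Of the 4 vesicle and endosome members Hspa8 was higher, and Dnajc5, Dnajc6 and Dnajc13 did not pass, with ratios of 0.985, 0.999 and 0.993. No small heat shock gene passed. Of 23 heat shock factors and co-chaperones outside the member list 2 were higher and 7 lower, with a median of −0.04, and both higher ones turned with spike-in totals. The lowest ratio was that of Fkbp5, an Hsp90 co-chaperone and glucocorticoid target, with 1617 counts in replicate 2 against 2179 in replicate 1, at a ratio of 0.757 (0.709 to 0.807). Cryab had 8297 and 6845 counts, a ratio of 1.24 (1.2 to 1.28), beside the oligodendrocyte markers, all 5 of which were higher in replicate 2 with a median log2 ratio of 0.43; their part in it was not tested. Of 9 mitochondrial quality control genes 1 was lower, and of 6 prefoldin genes, whose product hands actin to the CCT ring, 1 was lower. Of 13 tested relatives under other symbols, such as Tcp1, Gak and Cryab, 2 were higher, of which 1 turned with spike-in totals, and 1 was lower.

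Several abundant members share long stretches with other genes. In the deposited mm9 junction list, whose 2 columns carry no replicate name, the 8 introns of Hspa8 were spanned by very unequal numbers of reads. Counted from the start of the gene, the first column gave 11158, 332, 10922, 6732, 1599, 1412, 1015 and 625 reads, and the second column gave 11019, 384, 11566, 6185, 1667, 1909, 1157 and 705. The first, the third and the fourth intron had the most reads. Of the 101-base windows across those 3 junctions, 0%, 2% and 15% also occur in transcripts of other genes. Across the other 5 junctions 91% (the second intron) or 100% do. The gene that shares most with Hspa8 is Gm15459, annotated as a processed pseudogene, which holds 26.1% of the windows of all Hspa8 transcripts. Hspa5, the ER relative with the same number of introns, had between 480 and 1152 reads at each, and none of its windows occurs elsewhere. Hsp90ab1 also shares no window with another gene, but its annotated junctions with at least 100 reads in each column had between 2398 and 10550 reads. Uneven junction reads were thus not limited to members with shared windows, and their cause was not tested. How the mm9 reads were placed when they matched several genes is not given in the sources used here.

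**Figure D4:**
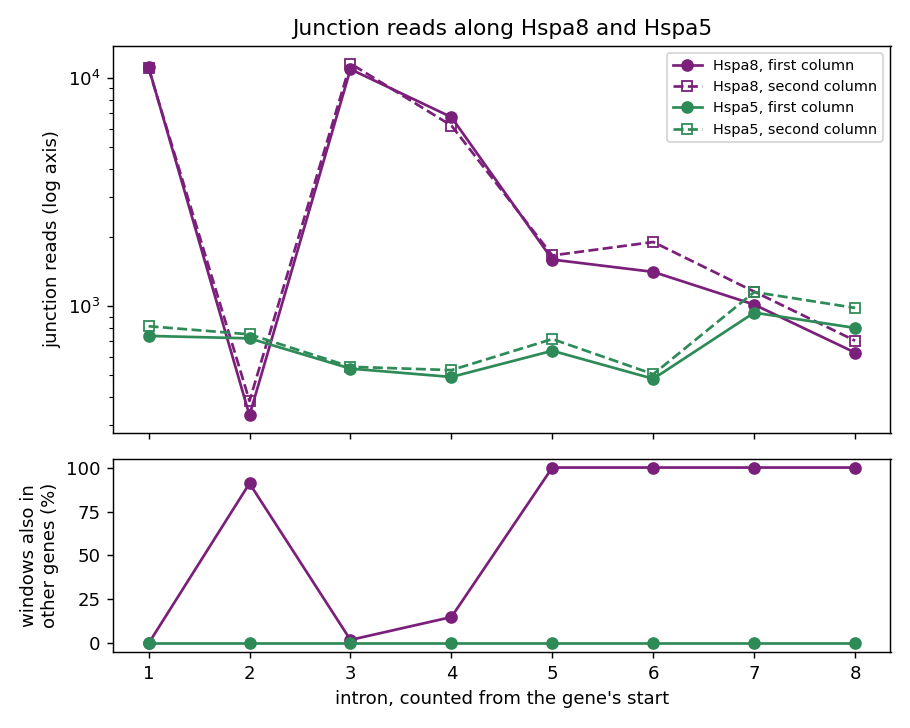
Upper panel, reads over each intron of Hspa8 and Hspa5 in the first and the second column of the mm9 junction list, on a log axis; lower panel, the share of 101-base windows across the same junction that also occur in transcripts of other genes, in percent. Hspa8 junctions whose windows are shared at 91% or 100% have between 332 and 1909 reads, those at 0% to 15% between 6185 and 11566, and Hspa5 stays between 480 and 1152.

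Shared sequence differed by member. After the Hspa1 pair the highest shares of windows found in other genes were 43.9% for Hspb1, 37.8% for Hsp90aa1, 28.1% for Hspa8, 23.2% for Hspd1 and 14.5% for Dnajb6. Of all members, 11 had estimated counts that were not whole numbers (by more than 0.005), which marks reads divided between genes. Their levels are less certain than those of members such as Hspa5, Hsph1, Dnajc5 or Bag6, whose windows occur in no other gene. The deposited estimate of this uncertainty, the posterior SD of the count, was 59.4 counts in replicate 2 and 70.1 in replicate 1 for Hspa8. For Hspa1b, with 797 and 1120 counts, it was 18.0 and 19.3.

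The authors' mm9 gene values gave the same picture for most members. Relative to the median gene, 9 of 81 members with values in both (11.1%) differed by more than 2-fold between the mm9 RPKM and the mm10 FPKM tables, beside 9.39% of 17811 genes. Dnajc13 was 5.47-fold lower on mm9, and Dnajc19, Hspb11, Hspe1, Dnajb2, Hspb1 and Dnajb6 were between 2.03-fold and 3.81-fold lower. Hspa1a was 2.52-fold and Hspa1b 3.54-fold higher on mm9, where the log2 ratio of Hspa1a over Hspa1b was −0.09, against 0.39 ± 0.18 in mm10 TPM (SD, n = 2). The order of that pair is therefore not settled by these files. For Dnajc13 the mm10 transcript table puts 45.0 ± 1.14% of the gene's TPM on a transcript of 398 nucleotides, while the full transcript of 8012 nucleotides has 19.2 ± 0.707% (SD, n = 2).

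Transcript use was read from the mm10 transcript tables for the 57 members with at least 10 TPM in both libraries, of which 44 have more than 1 transcript. In 25 of the 57 the leading transcript held at least 90% of the gene's TPM. The 25 include every gene with only 1 listed transcript, whose share is fixed by the annotation and does not describe transcript use. In 11 of the 57 the leading transcript held less than 60%. These were Bag1, Bag6, Cct3, Dnajb12, Dnajb2, Dnajc13, Dnajc17, Dnajc24, Dnajc6, Dnajc7 and Hsp90aa1. Bag1 was the gene whose leading transcript differed between the libraries. Its transcript of 1336 nucleotides held 55.8% in replicate 2 and 46.7% in replicate 1, and that of 1348 nucleotides 44.1% and 53.3%. Hsp90aa1 was split between a transcript of 3281 nucleotides, with 59.6% in replicate 2 and 52.8% in replicate 1, and one of 2852 nucleotides with 30.2% and 42.5%. The auxilin gene Dnajc6 was divided between a pair of long coding transcripts at 43.0 ± 1.46% and 35.1 ± 1.38% (SD, n = 2).

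In 13 of the 57 genes more than 20% of the TPM lay on transcripts that GENCODE M21 types as something other than protein coding. Transcripts that M21 does not hold were not counted there, and in Hspa4l those held 88.2 ± 3.06% of the TPM (SD, n = 2), so its share is unknown. In Dnajc7 it was 70.4 ± 2.12%, in Cct3 41.2 ± 1.13% and in Hspa5 38.7 ± 0.738% (SD, n = 2 each). For Hspa8 a transcript of 727 nucleotides typed as processed transcript held 30.4% in replicate 2 and 23.8% in replicate 1. The protein-coding transcript of Hspa8 was then at 742 TPM in replicate 2 and 812 TPM in replicate 1, still above all other members. For Cct3 a retained-intron transcript of 472 nucleotides held 37.9 ± 1.75%, and its coding transcript had 46.7 TPM in replicate 2 and 48.2 TPM in replicate 1. A single transcript held all of the TPM of Cct6a and of Dnajc15, typed as processed transcript for Cct6a and as a target of nonsense-mediated decay for Dnajc15. No other transcript is listed for either gene in the mm10 transcript tables, so this share is fixed by the annotation and does not describe transcript use. Both genes are among the 13. TPM weighs a short transcript by its length, so few reads on a short one give it a large share.

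**Figure D5:**
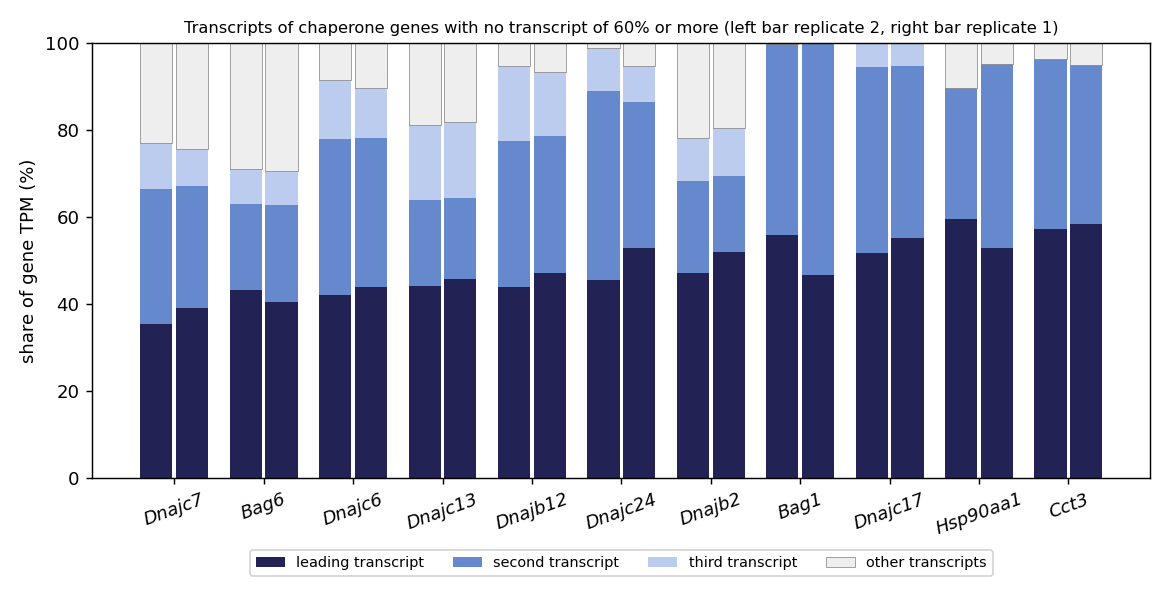
Share of each gene's TPM held by its 3 leading transcripts (those of at least 5%) and by the others together for the 11 members with no transcript of at least 60%, in percent, with replicate 2 in the left bar and replicate 1 in the right bar of each gene. The order of the first 2 transcripts differs between the bars in Bag1, and the second transcript of Hsp90aa1 has 30.2% in replicate 2 and 42.5% in replicate 1.

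Exon inclusion was measured from the mm9 junction reads, as the mean of the reads on both sides of an exon over that mean plus the reads that skip it. Counted were intervals between annotated junctions of members that had a skipping junction and at least 20 informative reads in each column. Of 108 such intervals, 10 in 8 genes had an inclusion between 10% and 90%. They were not checked against annotated exons. Some overlap, and some join neighbouring exons with the intron between them, as in Bag6, so neither number is a count of separate exons. The exon of 65 nucleotides at chr4:101204603-101204667 (mm9) in Dnajc6 was included at 67.5% in the first column and 69.0% in the second. An exon of 53 nucleotides at chr2:181255940-181255992 in Dnajc5 was included at 25.1% and 20.1%. An exon of 117 nucleotides at chr16:4705844-4705960 in Dnaja3, a mitochondrial J protein, was included at 13.7% and 12.6%, and as a multiple of 3 it keeps the reading frame if it is coding. The same holds for an exon of 147 nucleotides in Bag6, included at 85.6% and 86.6%. An exon of 139 nucleotides in Dnajc24, a J protein of diphthamide synthesis, was included at 87.6% and 85.5%. One of 110 nucleotides in Bag2 was included at 72.3% and 85.4% with 32.5 and 41 informative reads. Its skipping junction is unannotated and had 9 and 6 reads. The sides of an exon had unequal reads in the first column in Bag2 (31 and 16), Dnajc5 (52 and 83) and Dnajc6 (145 and 245), among others. In Dnajb4 and Dnajb5 the reads on either side of the exons were very unequal, 111 against 14 in the first column for the Dnajb4 exon, and the Dnajb5 exons overlap each other, so those percentages are not given weight.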

How the data were processed

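Polyadenylated RNA of 2 libraries was measured, and this text uses 86 genes chosen by symbol. The members and gene lists were chosen with earlier results of these data known. Per the file headers, the authors deposited expected counts (estimated, not whole where reads fit several features), TPM and FPKM for genes and transcripts on mm10 with annotation M4, and the isoform percent of each transcript. On mm9 the authors deposited RPKM per gene and junction read counts in 2 columns with no replicate name. The programs are not given in the sources used here. Names, types and coordinates came from GENCODE M21 by gene ID, which gave a symbol to 98.0% of gene rows; promoters came from RefSeq (GRCm38.p6).

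Counts were scaled by TMM (edgeR 4.0.16, R 4.3.3), filtered at 10 counts over both libraries and compared by an exact two-sided binomial test with Benjamini-Hochberg adjustment over 19829 genes. Expected counts were rounded for the tests. A 2-sided edgeR exact test with a common dispersion estimated from both libraries, DESeq2 1.42.0 size factors, plain and spike-in totals and other filters were the alternatives. Log2 ratios used a pseudocount of 0.5 counts. With 2 libraries of 1 group, the binomial p-values set the difference between these libraries against counting error only. Those of the edgeR test add the common dispersion, which was estimated from the same 2 libraries. On simulated counts for this comparison (19800 genes tested), 82.0% of 100 genes changed 1.2-fold and all 100 changed 2-fold were recovered, with 11 false calls. The simulated libraries held counting error only, without the further spread between real libraries. The number of false calls therefore does not carry over to these data. Levels are TPM, as mean ± SD over both libraries. Scripts ran in Python 3.11.15 with pandas 2.3.3, numpy 2.4.6 and scipy 1.17.1; figures used matplotlib 3.10.9.

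Named are the 4 most abundant genes of each family, members of fixed gene pairs, stress-inducible members, members at 0, members singled out by the transcript, exon or annotation rules, and genes past the threshold with a ratio of at least 1.2. Cct4, Cct8, Dnajc10, Dnajc11, Hspb7 and the genes of the ER folding list were named after their values were seen.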

Additional observations from a re-analysis of the deposited data

How the results depend on the processing

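No paired analysis was possible because there was 1 group. Of the 24 members past the threshold, 22 passed in the same direction with DESeq2 size factors, 18 with plain totals, 20 with no filter (85 members tested), 24 with a minimum of 100 counts (75 tested) and 15 with spike-in totals. Plain totals called 24 in all (5 higher, 19 lower, 29.6% against 31.2% of all genes). Spike-in totals called 57 (2 higher, 55 lower, median log2 ratio −0.14, 70.4% against 53.2%) and edgeR's exact test 0 (0 higher, 0 lower). The ratio of TPM had a median of −0.14 where scaled counts gave 0.01. With spike-in totals the log2 ratio became −0.0651 for Cct3, −0.0724 for Dnajb1, −0.0862 for Dnajb2, −0.0587 for Dnajb4, −0.0264 for Dnajb5, −0.0676 for Dnajc10, −0.129 for Hsp90aa1 and −0.0802 for Hspa8, and with plain totals −0.00917 for Hsp90aa1. These follow from the scaling itself, which moves all genes alike.

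Between genes, Hspd1 over Hspe1 turned to 0.60 on mm9 and 1.27 in counts, Hspb1 over Hspb8 to −0.45 and −0.56, and Hspa1a over Hspa1b to −0.0902 on mm9; the cause was not tested. The CCT span was 1.93 on mm9 and 1.90 in counts. Exon intervals of intermediate inclusion numbered 16 between 5% and 95% and 8 with at least 50 informative reads in each column. The 2-repeat heat shock element was in 21 members.

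Without either library in turn, 74 to 75 members reached 1 TPM, the Hsp70 and Hsp110 share was 33.0% to 35.0%, the CCT span 1.51 to 1.57, and 12 to 13 genes had no transcript of 60%. Depth limits the members under about 100 counts, such as Hspb7, Dnajb13 and Dnajc5b, whose intervals span more than 2-fold.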

Other observations

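Some members lie next to another protein-coding gene. Of the 85 members that are protein coding in the M21 annotation, 15 start within 1000 bases of such a gene that runs the other way. At their starts 10 overlap a protein-coding gene of the other strand, and 4 overlap one on the same strand. Other gene types were left out. The share over all protein-coding genes was not counted, so these numbers are not a result about the chaperones. Levels of these neighbours ranged widely. Dnajb1 had 27.0 TPM in replicate 2 and 28.5 TPM in replicate 1, while Tecr, an enzyme of fatty acid elongation that starts 222 bases away, had 345 and 371 TPM. Cct5 had 83.5 and 97.0 TPM, against 6.51 TPM in each library for Fam173b, 48 bases away. Dnajb4 and Fubp1, 120 bases apart, were close, with 22.3 and 23.2 TPM for Dnajb4 and 20.8 and 23.3 TPM for Fubp1. Dnajc12 lies 739 bases from Sirt1, a deacetylase, whose log2 ratio between libraries was −0.03 where that of Dnajc12 was 0.35. For Dnaja3, Dnajc14, Dnajc25 and Hspa12b, which overlap a gene on the same strand, reads of the shared part cannot be told apart by strand. These genes were chosen after their values were seen.

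Unannotated junctions held few reads in most members. In Cct8 they had 653 reads in the first column and 671 in the second, beside 8299 and 8230 reads on its annotated junctions. In Dnajc13 they had 480 and 374 reads, beside 4914 and 4980, and in Dnajb2 257 and 278, beside 2763 and 2845.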
